A study of Mus musculus with 55 samples.

Results

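IL-2680 is one line of the Collaborative Cross (CC), and it was represented by the livers of 2 mice among 55 mice of 29 lines. Its members are the mice whose strain label reads IL-2680, replicate 1 (28.3 g) and replicate 2 (25.1 g), and they were set against all 53 mice of the 28 other lines. A gene was reported when both IL-2680 mice lay above, or both below, each of the 53 other mice in FPKM, the fragments of a gene scaled to its length and to the fragments of the mouse. Only the 11284 genes that reached at least 2 FPKM in at least 1 mouse were considered.

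CC lines are recombinant inbred lines that each combine the genomes of 8 founder strains, so mice of a line serve as near-identical genetic replicates. All 55 animals are described as untreated males on the same chow and water, and polyA RNA of whole liver was sequenced. The IL-2680 mice were 11.9 weeks old, the oldest of the series, while the others were 8 to 10.9 weeks old with a median of 9.1 weeks. Line and age therefore cannot be told apart for IL-2680, and the labels name no sequencing batch. The other mice weighed 12.8 to 38 g with a median of 23 g, so both IL-2680 mice were within the weight range. The expected counts summed to 28.4 and 28.3 M fragments in the IL-2680 mice and to 20.5 to 34.0 M in the others, with a median of 27.7 M.

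Whole liver is mostly hepatocytes, with resident macrophages called Kupffer cells, sinusoidal endothelial cells, stellate cells and blood. Cells that sense interferon switch on a set of antiviral genes, and the same signal raises the MHC class I molecules that display peptides on the cell surface. In rodents the liver is also strongly shaped by sex, since the pattern of growth hormone release sets apart male-typical genes, such as the major urinary proteins, from female-typical genes such as several Cyp2b and Cyp3a enzymes.

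The labelled tissue and sex were checked on their markers. The hepatocyte markers summed to 71383 and 34124 FPKM in the IL-2680 mice, within the 29957 to 78895 FPKM of the others. Xist, the RNA of the inactive X chromosome, was at 0.01 and 0.06 FPKM, and the Y-linked Ddx3y was at 16.2 and 15.3 FPKM. Of the other mice 1, of line IL-785, had at least 1 FPKM of Xist, at 39.5 FPKM. Ddx3y was at least 5.49 FPKM in every other mouse. Of the adipocyte and pancreas markers, Plin1, Ctrb1 and Prss2 were at 0 in both mice, whereas the elastase Cela1 was at 37.3 and 34.3 FPKM. Across the 11284 genes the 2 mice had a Spearman correlation of 0.969, while the next most similar mouse of any line reached 0.938 for replicate 1 and 0.936 for replicate 2. The 31 pairs of line mates in the series ranged from 0.926 to 0.992 with a median of 0.976, and 24 of these pairs were more alike than the IL-2680 pair.

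Both IL-2680 mice lay above all 53 other mice for 73 genes, which is 0.647% of the genes tested, and below all of them for 15 genes, 0.133%. Together these 88 genes were 0.78% of the genes tested. Among the 16 lines with 2 mice the same count ranged from 2 genes in IL-1052 to 943 genes in IL-2146, and IL-2680 ranked 12. The step to the next mouse was usually small. The median ratio between the nearest IL-2680 mouse and the nearest other mouse was 1.12 for the genes above and 1.10 for the genes below, and 59 of the 73 genes above had at least 100 expected counts in both mice. Only 5 genes, among them Gm7749, Bin2, Evc and Sftpa1, were separated by a ratio of at least 1.5 (on FPKM + 0.5), and all of them were above. The filter of 2 FPKM counted the IL-2680 mice too. Gm7749, Evc and Sftpa1, at most 0.28, 1.6 and 1.13 FPKM in the others, passed it only through IL-2680. Genes that pass in this way can lie above the range but not below it, so the counts of 73 and 15 are not on equal terms. Since the genes outside the range were chosen on their levels, the values that follow describe them. Where a p-value is given later for some of them, it rests on the same levels and is no separate support. The differences quoted with them are log2 differences in normalised counts between IL-2680 and the mean of the other lines, with the standard error (SE) that the spread among line mates gives.

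Of the 73 genes above the range, 63 had named symbols and 10 were unnamed models or pseudogenes. The named gene with the widest gap was Bin2, which encodes a membrane-bending protein of blood cells and lies at chr15:100475214-100499933 on the minus strand (mm9). Bin2 was at 5.04 and 8.12 FPKM in IL-2680. In the other mice it had a lowest value of 0.17, a median of 0.67 and a highest value of 2.57 FPKM, the last in IL-2156. The 2 mice were thus clear of every other liver, with a log2 difference of 3.16 ± 0.21 (SE).

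Among the named genes above, Npr2, the receptor for C-type natriuretic peptide, was at 25.8 and 30.25 FPKM, against 0.63 to 19.1 FPKM and a median of 7.05 FPKM in the other mice (log2 difference 2.27 ± 0.17, SE). Its antisense partner Gm12473 overlaps it at chr4:43644411-43654405 and was also above, at 2.71 and 3.51 FPKM against at most 2.08 FPKM. The libraries came from a stranded kit, but the strand setting of the counting is not given in the sources used here, so reads of the pair may not be told apart. Gna14, a G protein alpha subunit of the Gq family, was even between the 2 mice at 7.17 and 7.13 FPKM. The other 53 mice had 0.20 to 5.16 FPKM of Gna14 with a median of 1.91 FPKM. Camk2b, a subunit of a calcium- and calmodulin-dependent kinase, was at 23.7 and 14.4 FPKM, against a median of 0.61 and a highest value of 11.2 FPKM. Evc, a protein of the primary cilium that acts in hedgehog signalling, was at 3.06 and 2.77 FPKM with a highest other value of 1.60 FPKM. For each of these genes the 2 livers were above all others, although the nearest other line differed from gene to gene.

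Other named genes above the range encode enzymes or transporters. Aass, which catalyses the opening steps of lysine breakdown, was at 140 and 125 FPKM, while the other mice had 52.98 to 94.7 FPKM with a median of 65.0 FPKM. This gene, at chr6:23022173-23082986, was abundant, with a log2 difference of 0.83 ± 0.12 (SE). Rfk, riboflavin kinase, which makes the flavin cofactor FMN, was at 35.5 and 35.65 FPKM against 12.2 to 26.7 FPKM (median 18.5 FPKM), a log2 difference of 0.87 ± 0.09 (SE). Acot11, an acyl-CoA thioesterase, was at 8.32 and 9.27 FPKM, with a median of 1.91 and a highest value of 6.34 FPKM in the others. In all 3 genes the mates were close to each other and the groups did not overlap. Slc23a1, a vitamin C transporter, was at 41.5 and 32.8 FPKM against at most 28.4 FPKM. Sepw1, selenoprotein W, was at 108 and 125 FPKM against at most 98.35 FPKM.

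Further named genes above the range were at lower levels. Siglec1, a sialic acid receptor of macrophages, was at 2.54 and 2.71 FPKM against at most 2.01 FPKM. Havcr1, a receptor for phosphatidylserine on dying cells, was at 2.46 and 1.41 FPKM, where the other mice had a median of 0.02 and a highest value of 1.00 FPKM. Sftpa1, the surfactant protein A best known from lung, was at 2.38 and 2.02 FPKM against at most 1.13 FPKM. Amn, which anchors the vitamin B12 uptake receptor, was at 1.83 and 3.09 FPKM against at most 1.08 FPKM, and the serine peptidase Htra4 was at 2.22 and 2.30 FPKM against at most 1.36 FPKM. These 5 genes were near the floor of what was measured in most livers. Ear11, a secreted ribonuclease of the eosinophil-associated family, was at 6.49 and 27.3 FPKM on 113 and 479 expected counts. Its median in the other mice was 0 FPKM and its highest value was 4.22 FPKM, in line IL-785. Both IL-2680 mice exceeded it, replicate 2 by far more, and paralogs of this family make the value uncertain.

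**Figure D1:**
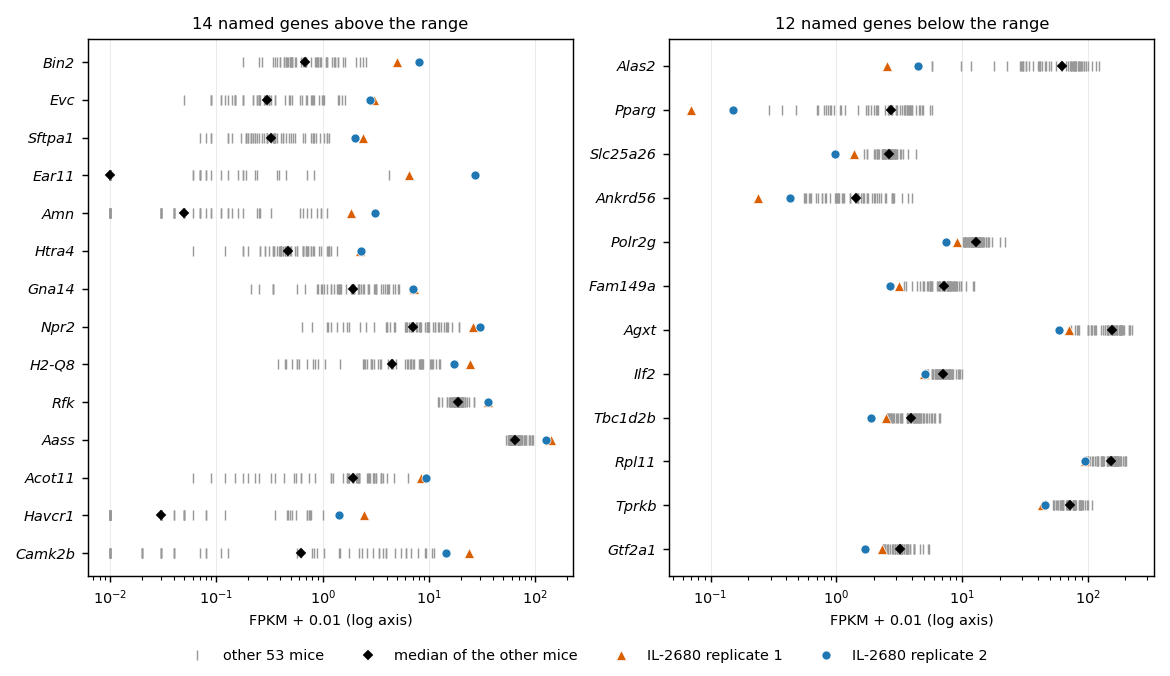
FPKM + 0.01 on a log axis for 14 named genes above and the 12 named genes below the range, with a grey tick for each of the 53 other mice, a black diamond for their median and a triangle and a circle for IL-2680 replicates 1 and 2. The coloured points sit outside the ticks in every row, clearly for Bin2 (5.04 and 8.12 against at most 2.57 FPKM) and barely for Rpl11 (96.1 and 95.4 against at least 96.5 FPKM).

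Of the 15 genes below the range, 12 had named symbols. Alas2, the erythroid enzyme that opens haem synthesis, at chrX:146981918-147005181, was at 2.52 and 4.50 FPKM. The other mice had 5.72 to 124 FPKM of Alas2 with a median of 62.5 FPKM, and the log2 difference was -3.88 ± 0.44 (SE). The 2 livers thus had a small fraction of the usual level, although 1 other mouse, of line IL-2011, came close. The 3 erythroid markers, Alas2 among them, together summed to 305 and 470 FPKM. The other mice had 198 to 2756 FPKM with a median of 761 FPKM. Apart from Alas2, Hbb-b1 was at 172 and 246 FPKM (median 471 FPKM) and Hba-a1 at 131 and 220 FPKM (median 258 FPKM). Blood content as read from these markers was thus at the low side but inside the range, and its part in the Alas2 result was not tested. In bulk tissue, fewer cells of a type and less RNA per cell cannot be told apart.

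Pparg, the nuclear receptor that drives fat storage in adipocytes and fatty liver, was at 0.06 and 0.14 FPKM on 3 and 7 expected counts. The 53 other mice had from 0.28 to 5.77 FPKM of Pparg with a median of 2.70 FPKM, and the log2 difference was -4.58 ± 0.56 (SE). Both mice were below every other liver. The gene lies at chr6:115311239-115440419, and the unnamed model 2510049J12Rik at chr6:115533562-115542594 was also below the range, at 2.98 and 1.01 FPKM against at least 3.75 FPKM. Agxt, the peroxisomal enzyme that removes glyoxylate, was at 71.4 and 59.7 FPKM, where the others had 73.2 to 227 FPKM with a median of 157 FPKM (log2 difference -1.26 ± 0.16, SE). Slc25a26, which carries S-adenosylmethionine into mitochondria, was at 1.37 and 0.97 FPKM against at least 1.65 FPKM. Polr2g, a subunit of RNA polymerase II, was at 9.12 and 7.52 FPKM against at least 10.1 FPKM, and the ribosomal protein gene Rpl11 was at 96.1 and 95.4 FPKM against at least 96.5 FPKM. Tprkb, a subunit of a tRNA-modifying complex, was at 43.4 and 45.8 FPKM, just under the lowest other value of 46.0 FPKM. Ilf2, Gtf2a1, Tbc1d2b, Fam149a and Ankrd56 made up the rest of the named genes.

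To place IL-2680 among the lines with the line as the unit, counts were summed over the mice of each line and IL-2680 was tested against the 28 others. By edgeR's quasi-likelihood test with Benjamini-Hochberg adjustment at 0.05, 4 genes were higher (0.0354% of the genes tested) and 1 was lower (0.00886%). The unadjusted p was under 0.05 for 191 genes higher and 185 genes lower. Slc22a27, a member of a family of organic anion transporters, had an adjusted p = 0.0185 but was high in replicate 1 only, at 28.7 FPKM, against 1.13 FPKM in replicate 2 and at most 3.44 FPKM in the other mice. Ear11 and the unnamed Gm7749 had the same adjusted p, and Gm12521, at most 0.79 FPKM in the other mice, had 0.0456. Gm7749 and Gm12521 passed the filter of 2 FPKM only through the IL-2680 mice, so their p-values are no separate support. Gm7749 was at 2.52 and 1.77 FPKM, while 41 of the 53 other mice were listed at 0 and the highest had 0.28 FPKM. Hsd3b3, a 3-beta-hydroxysteroid dehydrogenase at chr3:98545399-98567051, was the gene that was lower, at 21.3 and 13.04 FPKM (adjusted p = 0.0462). The other livers ranged from 13.6 to 223 FPKM of Hsd3b3 with a median of 150 FPKM, so 1 other mouse overlapped with IL-2680. When age entered the fit as a covariate, no gene passed in either direction, with 180 higher and 230 lower at an unadjusted p under 0.05. With DESeq2 15 genes were higher and 47 lower, but these were partly other genes. Slc22a27, Gm12521 and Hsd3b3 passed by DESeq2 as well, whereas Ear11 (adjusted p = 0.169 by DESeq2) and Gm7749 (adjusted p = 0.856 by DESeq2) did not. Without replicate 1, 15 genes were higher and 6 lower, and without replicate 2, 4 were higher and 0 lower.

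Next to these calls lay Mterfd1, a member of the mitochondrial transcription termination factor family (adjusted p = 0.0526, edgeR's quasi-likelihood test). Mterfd1 was at 116 and 79.2 FPKM, with a median of 12.15 and a highest value of 64.8 FPKM in the others, the last in line IL-1452. Bin2 missed the threshold with an adjusted p = 0.0597. Pon2, a paraoxonase, was at 3.42 and 2.72 FPKM in IL-2680 against a median of 20.1 FPKM and a highest value of 28.2 FPKM (adjusted p = 0.0902). A mouse of line IL-2693 had 2.29 FPKM of Pon2, so IL-2680 was not alone at the low end.

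A second comparison took the spread among line mates as the error and set IL-2680 against the mean of the 28 other lines. It asks whether IL-2680 differed from the average line by more than mates differ, not whether it was exceptional among lines. By edgeR's quasi-likelihood test with Benjamini-Hochberg adjustment, 1280 genes (11.3% of the genes tested) were higher and 748 (6.63%) were lower. Replicates are separate animals, so these p-values carry the spread between mice. The counts depended on both mice, with 746 higher and 499 lower without replicate 1 and 633 higher and 303 lower without replicate 2. The gene groups below are described by this comparison, and genes called higher or lower passed it. Counts of group members with 1 mouse left out are to be read beside the counts over all genes with the same mouse left out.

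Interferon-stimulated genes moved in one direction in IL-2680. Of 33 listed genes 31 were measured, and 21 of them rose (67.7%, against 11.3% of all genes) while none fell. The median log2 difference over the 31 genes was 1.21, where the median over all genes was 0.0067. IL-2680 had the highest of the 29 line means for 10 of the 31 genes (32.3%, against 3.45% of all genes). It was among the highest 3 lines for 21 of the 31, and for 1465 of all 11284 genes. With the line as the unit none of the 31 passed, and the smallest adjusted p was 0.498 (edgeR's quasi-likelihood test).

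Irf7, the master transcription factor of the interferon response at chr7:148448605-148452380, was at 90.3 and 50.6 FPKM. The other mice had 2.59 to 47.8 FPKM of Irf7 with a median of 10.4 FPKM, the highest being of line IL-4457, so both IL-2680 mice were above all. Oas2, a sensor of double-stranded RNA, was also above the range, at 2.06 and 1.06 FPKM against a median of 0.27 and a highest value of 0.97 FPKM. These were the only 2 of the 31 genes (6.45%, against 0.647% of all genes) for which both mice were above the 53 others. Oas2 reached the filter of 2 FPKM only in replicate 1, so its place among the measured genes rests on IL-2680 itself. Parp14 and Ifi27l1 were above as well but had not been listed. Parp14, an ADP-ribosyltransferase, was at 13.1 and 8.69 FPKM against at most 8.32 FPKM, and Ifi27l1 was at 207 and 223 FPKM against at most 200.5 FPKM.

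Further genes of the response were high in replicate 1 and within the upper range in replicate 2. Xaf1, a pro-apoptotic interferon target, was at 25.3 and 12.6 FPKM, with a median of 4.91 and a highest value of 14.0 FPKM in the others (log2 difference 2.57 ± 0.18, SE, adjusted p = 8.76e-12, edgeR's quasi-likelihood test). Ifi27l2a was at 33.9 and 24.2 FPKM, with a median of 5.01 and a highest value of 25.7 FPKM. Usp18, which removes Isg15 from proteins, was at 15.1 and 7.44 FPKM, with a median of 3.47 and a highest value of 13.2 FPKM. Each of the 3 thus had replicate 1 above all other livers and replicate 2 inside their range. Gbp3, a guanylate-binding protein, was at 11.7 and 3.76 FPKM (median 1.33 FPKM), and Ifi44 was at 8.20 and 1.60 FPKM (median 0.74 FPKM). Irf9, which binds interferon response elements, was at 19.4 and 12.4 FPKM (median 8.83 FPKM). By contrast Mx1 was at 0.53 and 0.25 FPKM, Rsad2 at 2.79 and 1.56 FPKM and Cxcl10 at 3.55 and 1.61 FPKM, and none of these passed the test.

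All 31 interferon-stimulated genes had more FPKM in replicate 1 than in replicate 2, where 63.0% of all genes did. FPKM is scaled to the fragments of the mouse, and the major urinary proteins took 2.50% of the expected counts of replicate 1 and 22.2% of replicate 2. A smaller share was thus left for all other genes in replicate 2, and its part in this difference was not tested. The sum of the 31 genes was 660 FPKM in replicate 1, above every other mouse, and 388 FPKM in replicate 2, which 7 other mice exceeded. The other mice ranged from 103 to 556 FPKM with a median of 272 FPKM. Without replicate 1 the genes that rose numbered 8, and without replicate 2 they numbered 20. The median log2 difference of the group was 0.78 without replicate 1 and 1.52 without replicate 2. The next oldest mice, 3 animals of 10.9 weeks from lines IL-2126 and IL-4052, had sums of 317, 299 and 274 FPKM over the same 31 genes, each lower than both IL-2680 mice. They were above the median of the other mice for 15, 16 and 12 of the 31 genes and above replicate 2 of IL-2680 for 6, 9 and 6 of them. Being younger and of other lines, they cannot separate age from line, and the part of age was not tested.

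**Figure D2:**
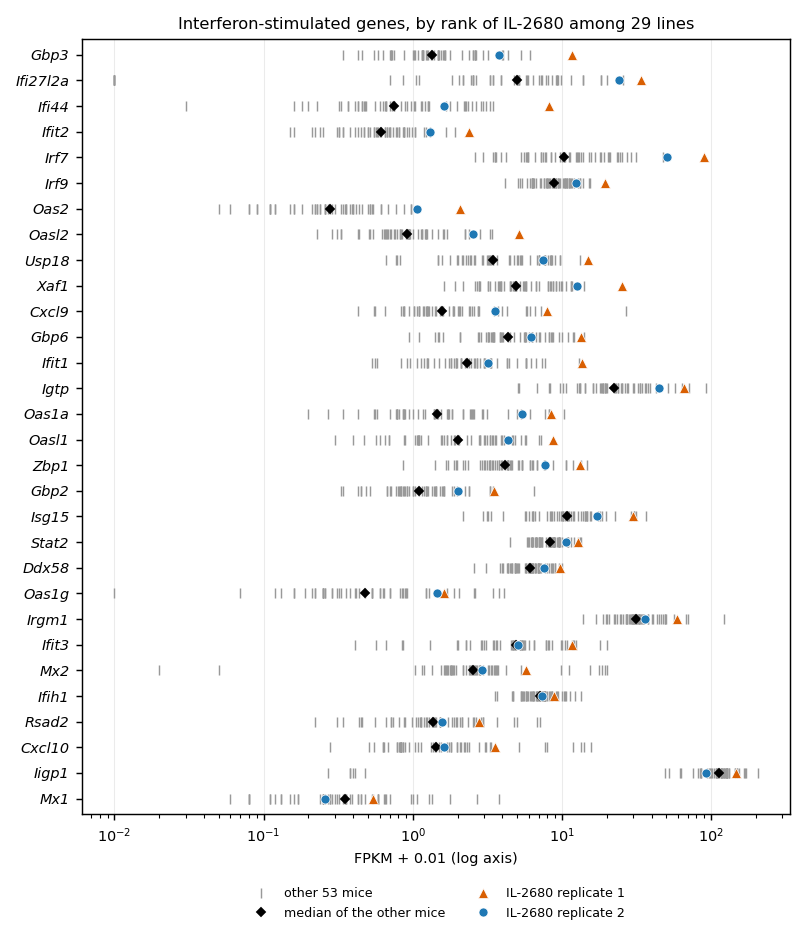
FPKM + 0.01 on a log axis for 30 of the 31 interferon-stimulated genes measured, ordered by the rank of IL-2680 among the 29 line means, with a grey tick for each of the 53 other mice and a diamond for their median. The replicate 1 triangle is to the right of the replicate 2 circle in every gene shown. Both points are to the right of all ticks for Irf7 (90.3 and 50.6 against at most 47.8 FPKM) and Oas2 (2.06 and 1.06 against at most 0.97 FPKM). In both genes replicate 2 is only just beyond the highest tick, by a ratio of 1.06 for Irf7 and 1.09 for Oas2.

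Factors of the interferon response bind DNA elements built of repeated GAAA units. A motif of 2 GAAA units with any 2 bases between them (TTTC units on the other strand, overlaps allowed) was searched in the 250 bases before the start of each gene in the RefSeq promoter table, on assembly GRCm38.p6. It was present for 936 of 27025 genes (3.46%) and for 12 of the 22 measured interferon-stimulated genes that matched the table (54.5%). Of the matched genes that rose in IL-2680 7 of 15 held it, and of those that did not pass 5 of 7. Of the 42 matched genes above the range only 1 held it (2.38%), close to the share of all genes. Igtp and Stat2, whose windows are not shown, held 1 match each, in Stat2 213 to 222 bases before the start. The windows of 4 genes that rose are shown, with the matched bases in capitals. They were picked because they show units stacked near the start. They lie at chr3:142559974-142560039 on the plus strand for Gbp3, chr19:34640760-34640838 on the plus strand for Ifit1, chr4:156200850-156200921 on the minus strand for Isg15 and chr5:120907526-120907570 on the minus strand for Oas1a. All are written in the direction of the gene.
Gbp3: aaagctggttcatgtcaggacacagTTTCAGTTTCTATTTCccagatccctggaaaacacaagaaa
Ifit1: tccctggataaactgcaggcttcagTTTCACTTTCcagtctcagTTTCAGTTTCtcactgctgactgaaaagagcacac
Isg15: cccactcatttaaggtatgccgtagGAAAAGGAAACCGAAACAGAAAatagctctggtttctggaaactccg
Oas1a: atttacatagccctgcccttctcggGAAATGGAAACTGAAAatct
The matches end 30 bases before the start in Gbp3, 76 in Ifit1, 57 in Isg15 and 5 in Oas1a. Ifit1 was at 13.6 and 3.20 FPKM (median 2.31 FPKM), Isg15 at 30.1 and 17.3 FPKM (median 10.8 FPKM), and Oas1a at 8.43 and 5.37 FPKM (median 1.45 FPKM). A match describes the reference sequence and not binding, and the sequence that IL-2680 carries at these places was not analysed here.

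Genes of MHC class I and of peptide loading were another group with many members higher in IL-2680. Of 22 class I and processing genes 14 rose (63.6%, against 11.3% of all genes) and none fell, with a median log2 difference of 0.90, and IL-2680 had the highest line mean for 8 of them (36.4%, against 3.45% of all genes). H2-Q8 was at 24.4 and 17.2 FPKM, with a median of 4.46 and a highest value of 12.8 FPKM in the others. H2-Q6 was at 72.4 and 43.7 FPKM, with a median of 13.3 and a highest value of 39.7 FPKM. Both are non-classical class I genes and both mice were above the range for each. H2-Q4 was at 101 and 55.0 FPKM (median 27.2 FPKM, highest 72.1 FPKM), and Tap2, which pumps peptides to class I molecules, was at 21.6 and 18.02 FPKM (median 9.60 FPKM, highest 19.8 FPKM). The classical H2-D1 was at 192 and 127 FPKM against a median of 178 FPKM and did not pass the test. The class I genes are close copies that share fragments, and founder alleles may align unequally to the reference, so the levels of single H2-Q and H2-T genes are uncertain.

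Of the 7 class II genes none rose and 1 fell, and their median log2 difference was -0.56. The gene that fell was H2-Eb1, at 0.41 and 0.47 FPKM in IL-2680, and the other mice had 0.04 to 162 FPKM of it with a median of 5.81 FPKM. Other lines were as low as IL-2680 for H2-Eb1. Without replicate 1, 7 class I and processing genes rose, and without replicate 2, 13 did.

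The class I genes lie together, and positions of all genes outside the range were compared. One run of at least 3 such genes with gaps of at most 2 Mb was found, chr17:34066488-35567000, a stretch of the MHC. It holds Rgl2, a second annotated Psmb9 entry, H2-Q8 and H2-Q6, all above the range, and 74 tested genes of which 16 rose and 2 fell, where 11.3% and 6.63% of all genes did. Rgl2, an exchange factor for Ral GTPases, was at 4.50 and 7.02 FPKM against at most 4.15 FPKM. The second Psmb9 entry, which overlaps Psmb9 and Tap1 and shares their reads, was at 4.77 and 9.22 FPKM against at most 3.67 FPKM. The largest shares of genes outside the range were on chromosome 6, with 10 of 569 tested genes, and chromosome 16, with 6 of 341, 1.76% each.

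Most macrophage markers rose, at similar levels in both mice. Of 12 measured markers of Kupffer cells and macrophages 11 rose (91.7%, against 11.3% of all genes) and none fell, with a median log2 difference of 1.42 (1.46 without replicate 1 and 1.39 without replicate 2). Cd5l, a scavenger-receptor protein secreted by Kupffer cells, was at 81.9 and 72.8 FPKM. The other mice had 3.89 to 86.8 FPKM of Cd5l with a median of 20.25 FPKM, so IL-2680 was near the top but not outside the range. Cd68, a lysosomal protein of macrophages, was at 6.72 and 8.57 FPKM (median 2.43 FPKM) and the folate receptor Folr2 was at 9.97 and 8.89 FPKM (median 3.00 FPKM). For both genes IL-2680 had the highest line mean, yet single mice of other lines were higher. Marco, a scavenger receptor, was uneven at 21.6 and 7.73 FPKM with a median of 0.88 FPKM. Csf1r, the receptor for the macrophage growth factor, was at 6.17 and 6.51 FPKM against a median of 4.48 FPKM and did not pass.

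None of the 12 listed markers was outside the range, although Siglec1, which was not listed, was above it. The sum of the 12 was 311 and 270 FPKM, against 20.65 to 542 FPKM with a median of 112 FPKM. Only 2 other mice had a higher sum than the IL-2680 mice. Markers of T and NK cells summed to 2.53 and 2.60 FPKM, where the others had 0.2 to 4.65 FPKM with a median of 0.80 FPKM. Each of these 5 markers was under 2 FPKM in every mouse and so below the filter, with Gzma at 1.44 and 0.91 FPKM. B cell markers summed to 14.1 and 17.3 FPKM, where the median was 4.20 and the highest value 55.9 FPKM. The B cell sum was almost all Ighm, at 13.6 and 16.1 FPKM, while Cd79a was at 0.05 and 0.46 FPKM against a median of 0.27 FPKM. Neutrophil markers summed to 1.33 and 2.50 FPKM, below the median of 4.07 FPKM. Endothelial markers summed to 41.9 and 40.5 FPKM against a median of 29.6 FPKM. The sums of the macrophage, T and NK cell, B cell and endothelial markers were thus above their medians and inside their ranges, and their part in the interferon and class I results was not tested. Without replicate 1, or without replicate 2, fewer macrophage markers rose, as fewer of all genes did.

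**Figure D3:**
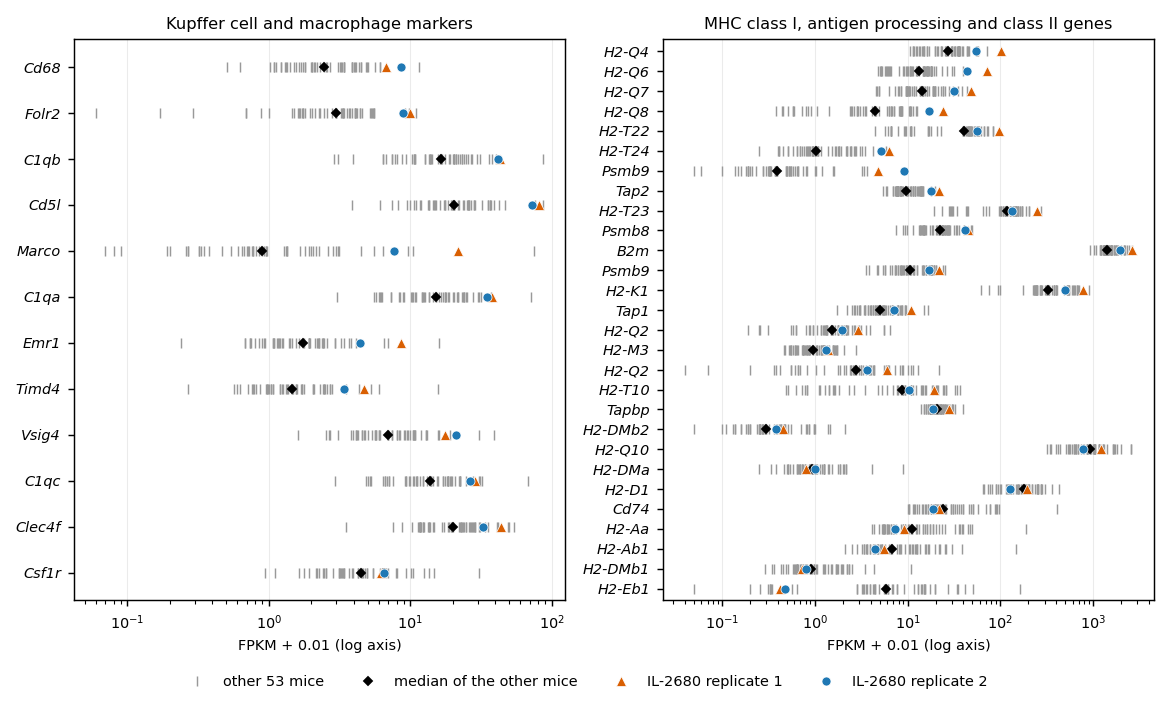
FPKM + 0.01 on a log axis for the 12 macrophage markers and for the MHC class I, antigen processing and class II genes, with a grey tick for each of the 53 other mice and a diamond for their median; Psmb9 and H2-Q2 have 2 annotated entries each. IL-2680 (triangle and circle) sits in the upper part of the ticks for the macrophage markers, for example Cd5l at 81.9 and 72.8 against a median of 20.25 FPKM, and to their right for H2-Q8 and H2-Q6.

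The 2 mates differed from each other in several genes known to follow the growth hormone pattern. Between them 114 genes were at least 4-fold apart (on FPKM + 0.5), the fifth highest count among the 16 lines with 2 mice, which ranged from 17 to 320 with a median of 65. The genes in this paragraph and the next were picked by the mates' difference, so their values are a description. The major urinary proteins, pheromone carriers secreted by the male liver, summed to 29527 FPKM in replicate 1 and 263321 FPKM in replicate 2. The other mice had 37581 to 340869 FPKM with a median of 180574 FPKM, so replicate 1 was below every other mouse and replicate 2 near the top. In expected counts these genes took 2.50% of replicate 1 and 22.2% of replicate 2, against 3.17% to 28.2% in the others. All 21 Mup genes were higher in replicate 2, 20 of them at least 4-fold. Mup20, known as darcin, was at 194 and 2788 FPKM, and Mup7 was at 2462 and 44728 FPKM. Mup genes are near-identical copies, so their sum is firmer than any single value. Some other male-typical genes were also higher in replicate 2, with Cyp7b1, an oxysterol hydroxylase, at 75.6 and 554 FPKM, Elovl3, a fatty acid elongase, at 37.3 and 205 FPKM and Cyp4a12a at 98.55 and 401 FPKM. Over the list of 20 growth hormone axis and male-typical genes, however, 10 were higher in replicate 1 and 10 in replicate 2, with 1 and 7 of them at least 4-fold higher.

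Most listed female-typical genes were higher in replicate 1. Cyp3a41a was at 1549 FPKM in replicate 1 and 0.22 FPKM in replicate 2. The other mice had 0.07 to 334 FPKM of Cyp3a41a with a median of 0.64 FPKM. The highest value was in line IL-785, which also holds the mouse with 39.5 FPKM of Xist. A level of at least 10 FPKM of Cyp3a41a was found in 13 other mice, none of them near replicate 1. A1bg was at 28.4 and 0.08 FPKM with a highest other value of 2.77 FPKM, and Cyp3a44 was at 41.9 and 0.02 FPKM with a highest other value of 39.9 FPKM. Replicate 1 was thus above all other mice for each of these 3 genes, while replicate 2 had almost none. Cyp2b9 was at 68.7 and 0.12 FPKM, and Sult3a1, a sulfotransferase, was at 28.15 FPKM and 0. The prolactin receptor gene Prlr was at 80.3 FPKM in replicate 1, above all others, and at 6.42 FPKM in replicate 2, below all others, whose range was 10.5 to 65.2 FPKM. Cyp17a1, the steroid 17-alpha-hydroxylase, was also higher in replicate 1 but was high in both mice, at 38.25 and 19.4 FPKM. The other mice had a median of 1.02 FPKM and a highest value of 87.5 FPKM of it.

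Of the 14 female-typical genes 9 rose (64.3%, against 11.3% of all genes) in the comparison of IL-2680 with the mean of the other lines, with 1 rising without replicate 1 and 9 without replicate 2. The group's median log2 difference was 3.93 with both mice and -3.04 without replicate 1. With the line as the unit and both mice the median was 0.65. The count over both mice rests on replicate 1, which was higher for 13 of the 14 genes. The Y-linked and Xist levels were alike in the 2 mice, as given with the check of sex.

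**Figure D4:**
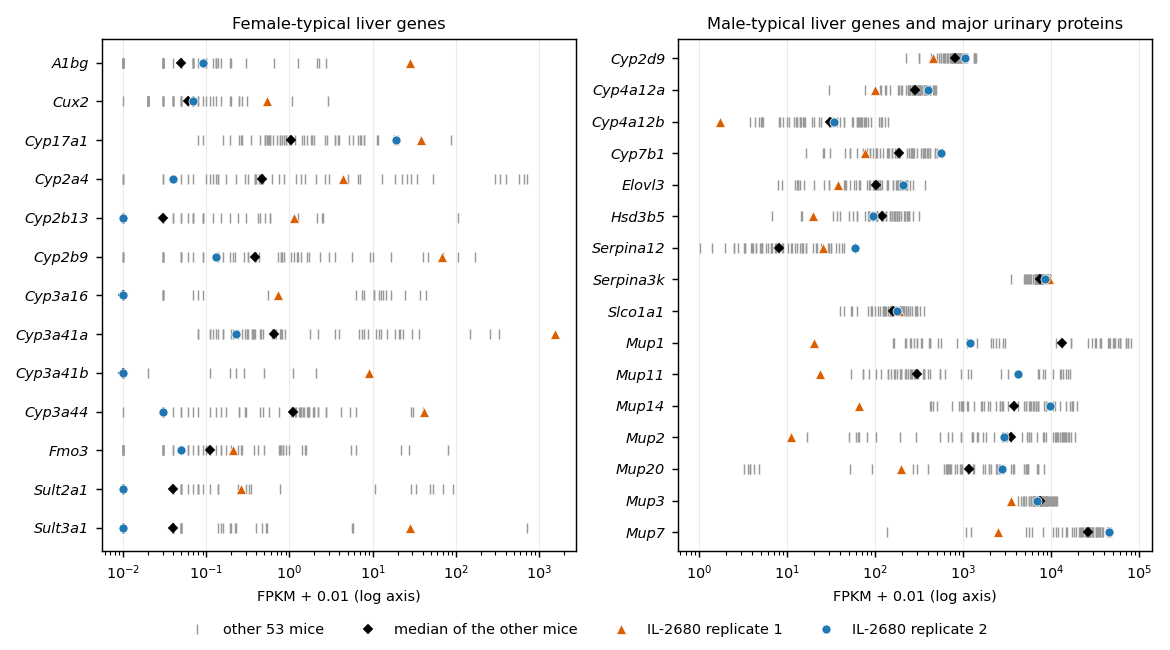
FPKM + 0.01 on a log axis for female-typical genes and for male-typical genes with major urinary proteins, with a grey tick for each of the 53 other mice and a diamond for their median. The replicate 1 triangle lies far to the right of the replicate 2 circle for Cyp3a41a (1549 and 0.22 FPKM) and to its left for Mup7 (2462 and 44728 FPKM).

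Some lipid synthesis genes rose, chiefly through replicate 1. Of 20 genes of fatty acid and triglyceride synthesis 9 rose (45%, against 11.3% of all genes) and none fell, with a median log2 difference of 0.57. IL-2680 was among the highest 3 line means for 11 of the 20, and for 1465 of all 11284 genes. Lpin1, a phosphatidate phosphatase of triglyceride synthesis, was high in both mice at 160 and 112 FPKM, where the others had 2.54 to 175 FPKM with a median of 14.0 FPKM (log2 difference 2.84 ± 0.28, SE, adjusted p = 8.59e-09, edgeR's quasi-likelihood test). Thrsp, a lipogenic regulator, was at 1086 and 706 FPKM with a median of 234 FPKM. Both mice thus stood well above the median for these genes. Me1, malic enzyme, was at 190 and 70.85 FPKM with a median of 53.6 and a highest value of 123 FPKM, and Scd1, the stearoyl-CoA desaturase, was at 2269 and 432 FPKM with a median of 475 FPKM. For Me1 and Scd1 only replicate 1 was at the upper end. Without replicate 1 only 1 of the 20 genes rose, and without replicate 2, 9 did.

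Among glucose genes a few were high in both mice. Of 16 genes of gluconeogenesis and glycolysis 4 rose (25%, against 11.3% of all genes) and none fell, and 1 rose without replicate 1 and 4 without replicate 2. Their median log2 difference was -0.22 without replicate 1 and 0.86 without replicate 2. Pck1, the enzyme that commits carbon to gluconeogenesis, was at 1536 and 1274 FPKM, with a median of 690 and a highest value of 1300 FPKM in the others. Pfkfb3, which makes the regulator fructose 2,6-bisphosphate, was at 27.2 and 35.3 FPKM, with a median of 4.17 and a highest value of 28.5 FPKM. IL-2680 had the highest line mean for both, with one of its mice above all others and the other just inside the range. Of 25 fatty acid oxidation and ketogenesis genes none rose and none fell. Apoa4, an apolipoprotein of lipid-rich particles, was at 1425 and 1175 FPKM against a median of 163 FPKM and a highest value of 2162 FPKM. Orm3, an acute phase protein, was at 69.8 and 78.3 FPKM with a median of 3.87 FPKM, and Apcs, another, was at 40.2 and 37.0 FPKM with a median of 285 FPKM. Orm3 rose and Apcs fell, and over the 26 acute phase genes 2 rose (7.69%) and 1 fell (3.85%), below the 11.3% and 6.63% of all genes.

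The study was made to describe variation in drug disposition, and 226 genes of 12 pooled lists were measured. The lists hold drug-metabolizing enzymes, transporters and their regulators, except 1 list of 22 measured genes of cholesterol synthesis and uptake. In that list 2 genes rose and 0 fell, and IL-2680 had the highest or the lowest line mean for none. The counts and medians in this paragraph include it. Of the 226 genes 41 rose (18.1%, against 11.3% of all genes) and 25 fell (11.1%, against 6.63%), with a median log2 difference of 0.15. Without replicate 1, 20 rose and 24 fell, with a median of -0.04, and without replicate 2, 23 rose and 14 fell, with a median of 0.19. IL-2680 had the highest line mean for 11 of the 226 genes (4.87%, against 3.45% of all genes) and the lowest for 6 (2.65%, against 0.806%). Both mice were above all others for 1 gene, Ugt1a6b, and below all others for 1, Pparg.

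Among the conjugating enzymes, Ugt1a6b, which attaches glucuronic acid to small phenols, was at 82.7 and 90.5 FPKM, against 16.2 to 76.0 FPKM with a median of 34.1 FPKM in the others (log2 difference 1.21 ± 0.09, SE). It shares its last exons with the rest of the Ugt1a locus, where fragments are shared out. Ugt1a9 fell, at 47.7 and 49.0 FPKM against a median of 148 FPKM. Gstt1, a theta-class glutathione transferase, was at 266 and 219 FPKM against a median of 148 and a highest value of 234 FPKM. Its line mean was the highest of the 29. Of 22 glutathione transferases 9 rose (40.9%, against 11.3% of all genes) and none fell, and without replicate 1 or replicate 2 the number was 2 or 3. Both mice were high for Gsta4 (92.3 and 94.5 FPKM, median 55.7 FPKM) and Gsta2 (88.4 and 80.6 FPKM, median 29.9 FPKM).

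Among the oxidising enzymes, Cyp2d22 was at 147 and 131 FPKM against a median of 53.8 and a highest value of 154 FPKM. Cyp2c70, an enzyme of murine bile acid formation, was at 516 and 665 FPKM against a median of 427 FPKM and did not pass the test. For both genes, and for Cyp3a41a and its copy Cyp3a41b (9.04 and 0 FPKM), IL-2680 had the highest line mean. Cyp2a12 fell and was even, at 106 and 103 FPKM against a median of 336 FPKM, and Cyp3a25 fell, at 192 and 197 FPKM against a median of 428 FPKM. The fatty acid hydroxylases Cyp4f16 (0.17 and 0.19 FPKM, median 0.93 FPKM) and Cyp4a32 (5.01 and 8.00 FPKM, median 18.8 FPKM) had the lowest line means. Among the aldo-keto reductases Akr1b3 (7.82 and 11.6 FPKM, median 6.08 FPKM) and Akr1b7 (0.23 and 2.99 FPKM, median 0.33 FPKM) had the highest line means. Akr7a5, at 24.5 and 30.3 FPKM against a lowest value of 30.2 and a median of 64.6 FPKM, had the lowest. Akr1b7 was high in replicate 2 only.

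Of the 15 carboxylesterases, which cleave ester drugs, 1 rose (6.67%) and 2 fell (13.3%), against 11.3% and 6.63% of all genes. The counts were 3 and 3 without replicate 1 and 2 and 2 without replicate 2. Ces2h was at 56.3 and 45.9 FPKM, and the other mice had from 0 to 55.1 FPKM with a median of 0.15 FPKM, so IL-2680 was at the top of a small set of lines with this RNA. Ces1g was at 4.47 and 2.14 FPKM, where the others had 2.28 to 151 FPKM with a median of 53.4 FPKM (log2 difference -3.95 ± 0.70, SE, adjusted p = 0.000152, edgeR's quasi-likelihood test). Ces1b was at 20.9 and 8.37 FPKM against 16.8 to 294 FPKM with a median of 153 FPKM. For both Ces1 genes IL-2680 had the lowest of the 29 line means, with replicate 2 below all other mice and replicate 1 inside the range. Among regulators, Nr0b2, the bile acid-responsive repressor SHP, was at 33.1 and 53.97 FPKM with a median of 20.1 and a highest value of 47.7 FPKM, the highest line mean. Slco1a6, a related organic anion transporter outside the lists, was above the range at 6.80 and 12.8 FPKM against at most 5.76 FPKM.

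**Figure D5:**
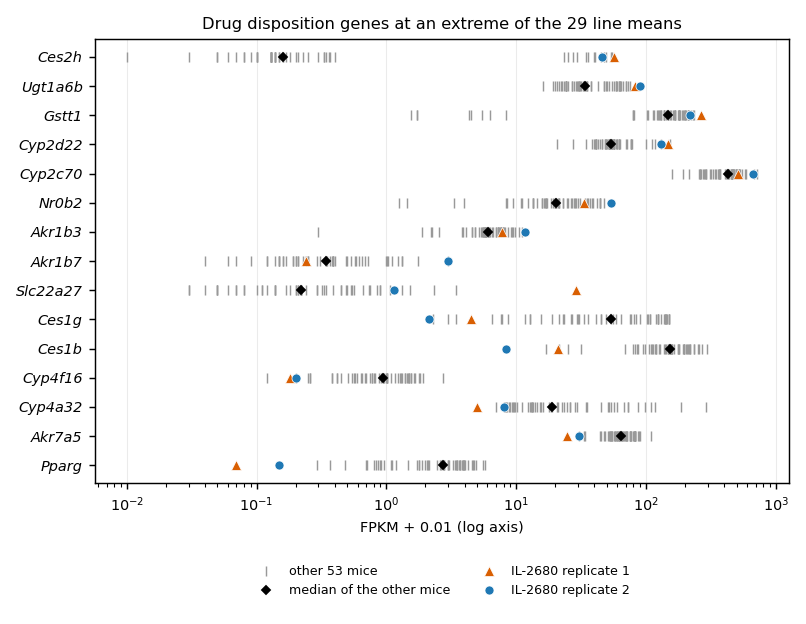
FPKM + 0.01 on a log axis for drug disposition genes for which IL-2680 has the highest or the lowest of the 29 line means (Cyp3a41a and Cyp3a41b left out), with a grey tick for each of the 53 other mice and a diamond for their median. Ugt1a6b (82.7 and 90.5 against at most 76.0 FPKM) and Pparg (0.06 and 0.14 against at least 0.28 FPKM) have both IL-2680 points outside the ticks, and Slc22a27 has only replicate 1 there.

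The relative expression of isoforms was examined in the same way. The share of each isoform in its gene, in percent, was compared for 40980 isoforms of 8289 genes with at least 50 expected counts in every mouse, and a gap of at least 5 percentage points was asked for. Both mice were above all others for 5 isoforms (0.0122%) and below all others for 2 (0.00488%). Entpd5, a nucleotide diphosphatase of the endoplasmic reticulum, rested on the most fragments. Its protein-coding isoform ENSMUST00000072061, with 14 exons at chr12:85714807-85746426, took 58.75% and 59.4% of the gene in IL-2680 on 3732 and 2679 expected counts. In the other mice it took 0% to 48.0% with a median of 5.69%, the highest value being of line IL-785. IL-2680 thus used this isoform for most of the gene while most livers used it little.

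Tmem63a, a mechanically gated channel, had an isoform of 23 exons, ENSMUST00000161523, at 14.4% and 17.45% on 57.8 and 57.9 expected counts. It was listed at 0 in all 53 other mice. Vhl, which marks hypoxia-inducible factors for destruction, had its non-coding transcript ENSMUST00000128770 at 31.6% and 23.3%, with 52 of the 53 other mice at 0 and 1 at 7.39%. The coding isoform of Vhl was correspondingly low, at 68.4% and 76.7% against at least 92.6%. The Vhl shift rests on only 20 and 13.8 expected counts of the non-coding transcript, so its size is uncertain. The isoform of Cybasc3 above the range was at 13.1% and 28.5% against at most 6.56%, and that of Ccdc137 at 18.8% and 19.6% against at most 13.5% on 6.04 and 6.40 expected counts. The other isoform below the range, of 2310003F16Rik, was at 60.1% and 61.7% against at least 70.3%. The shares of Tmem63a and Entpd5 were close between the mates, whereas Cybasc3 was uneven.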

How the data were processed

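PolyA RNA of liver from 55 CC mice of 29 lines, all described as male, was sequenced in pairs of 50-base reads, from stranded libraries. The authors aligned the reads with Bowtie 2 to transcripts of mm9 (Ensembl annotation) and quantified each mouse with RSEM version 1.2.18, per the submitters' notes and the paper's methods. The deposited expected counts are fragments per gene or isoform as RSEM estimated them, with fragments of several matches shared out. The deposited FPKM were scaled by the authors for length and fragments, the deposited TPM for length and to a fixed total, and the deposited isoform shares are in percent of a gene. Reads of all lines were aligned to 1 reference although the lines carry founder alleles, whose effect on the levels was not tested.

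Groups came from the strain labels. The members, gene lists and tests were chosen with earlier results of these data known. Genes with a maximum of at least 2 FPKM were kept (11284 of 37620), and symbols and positions came from an annotation of the same build (37205 genes matched). For tests, expected counts were rounded to whole numbers. In edgeR 4.0.16 with R 4.3.3 (TMM, quasi-likelihood F test, Benjamini-Hochberg threshold 0.05) IL-2680 was tested against 28 lines on counts summed by line (27 residual degrees of freedom), and against the mean of the other lines with a term per line (26 degrees). One line among 29 cannot reach a two-sided exact permutation p below 0.069, so no such test was used. On simulated counts of 11284 genes, the fit by line recovered 83 of 100 genes changed by 3 on the log2 scale and 69 of 100 changed by 2, with 5 false among 157 calls. The fit within lines recovered 98 and 98 of 100, with 12 false among 208 calls. In both simulations the changed genes were drawn only from genes above a minimum mean count per line. These rates therefore do not describe genes with few counts, such as Gm7749 and Ear11. The depth of 20.5 to 34.0 M expected counts limits genes with few counts, and RSEM's sharing adds error beyond counting.

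Named in the text are the 15 genes above and the 15 below (12 exist) with the widest gap to the nearest other mouse on log2(FPKM + 0.5), without pseudogenes and unnamed models, up to 4 genes per list outside the range or passing the test by line, genes in runs of neighbours, up to 6 isoforms each way, and drug disposition genes with an extreme line mean. Some genes that the rule or the lists hold are not reported here. Other genes were named after their values were seen, as examples of a list or because the mates differed. Isoforms needed 50 expected counts of the gene in every mouse and a gap of 5 points. Alternatives changed the unit, filter, gap, normalisation, tool (DESeq2 1.42.0, limma 3.58.1 with pseudocounts of 1 and 0.5), covariates, lines and mice. Calculations used Python 3.11.15, numpy 2.4.6 and pandas 2.3.3. Promoter sequences are from RefSeq, GRCm38.p6.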

Additional observations from a re-analysis of the deposited data

How the results depend on the processing

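The number of genes outside the range of the other mice moved with the unit and filter. Below the range, 15 genes became 8 in TPM and 36 in CPM with TMM factors, of which 7 and 15 were among the 15. Above it, 62 and 47 of the 73 genes remained. With a maximum of at least 10 FPKM the counts were 29 above and 9 below, and with a gap of 1.5-fold 5 and 0. With 1 IL-2680 mouse in place of 2, the counts were 235 without replicate 1 and 345 without replicate 2 above, and 54 to 163 below. In the test by line (4 higher, 1 lower), DESeq2 gave 15 and 47, no count filter 17 higher, limma on log2(FPKM + 1) 25 higher and on log2(FPKM + 0.5) 17 and 2. At least 10 counts in every line gave 0 and 0 (169 and 182 at an unadjusted p under 0.05 in edgeR), age as a covariate 0 and 0 (180 and 230), and body weight 0 lower (175). Lines with at least 2 mice gave 2 lower, and leaving out IL-1052 and IL-2750 gave 2 higher and 0 lower (170 and 166). Leaving out 1 mouse of IL-2680 gave 4 to 15 higher and 0 to 6 lower. Against the mean of the other lines, leaving out 1 mouse gave 633 to 746 higher and 303 to 499 lower. In the lists it gave 8 to 20 interferon-stimulated, 6 macrophage, 7 to 13 class I, 1 to 9 female-typical, 1 to 9 lipid synthesis and 2 to 3 glutathione transferase genes higher. For isoforms, at least 200 expected counts gave 3 above and 0 below, any gap 70 and 25, leaving out IL-1052 and IL-2750 8 above, and leaving out 1 mouse 54 to 63 above and 18 to 32 below. The causes were not tested. Of the values for single named genes 536 kept direction and side of the threshold, 15 gained and 25 lost the call, and none reversed. Ear11 passed the test by line in 9 of 14 settings, Gm7749 in 10 of 14, Slc22a27 in 12 of 14, Gm12521 in 9 of 14 and Hsd3b3 in 9 of 15. No paired analysis was possible because replicate numbers do not tie mice of different lines to each other. Low genes such as Pparg, Havcr1 and Amn rest on few fragments, and with 2 mice the spread of IL-2680 itself is poorly known.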

Other observations

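Some groups not described above were also measured. Of 20 heat shock and endoplasmic reticulum chaperone genes 6 rose (30%, against 11.3% of all genes) against the mean of the other lines by edgeR's quasi-likelihood test and none fell, with a median log2 difference of 0.47. With either mouse left out 3 rose, with a median of 0.43 without replicate 1 and 0.14 without replicate 2. Hsph1, an Hsp70 partner, was at 50.1 and 37.2 FPKM in the IL-2680 mice, with a median of 12.8 and a highest value of 155 FPKM in the other mice. Hyou1, a chaperone of the endoplasmic reticulum, was at 32.2 and 70.2 FPKM, with a median of 28.5 and a highest value of 56.5 FPKM, so that replicate 2 alone was above the others. Of 18 measured genes of the Serpina clusters, which encode protease inhibitors of plasma, 5 rose and 3 fell, where 11.3% and 6.63% of all genes did. Without replicate 1, 5 rose and none fell, and without replicate 2, 4 rose and 1 fell. Serpina3m was at 963 and 771 FPKM with a median of 312 FPKM, and Serpina1e was at 129 and 185 FPKM with a median of 4202 FPKM, both inside or at the edge of a wide range among lines.

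Of 20 immediate early and stress genes none rose and 2 fell (10%, against 6.63% of all genes), and 1 fell with either mouse left out. Gadd45a, a growth arrest gene, was at 0.80 and 0.78 FPKM with a median of 2.53 FPKM, and Ier2 was at 4.90 and 5.66 FPKM with a median of 11.3 FPKM. The adjacent genes Srrt and Slc12a9 on chromosome 5 were both above all other mice. Srrt, a factor of RNA processing, was at 15.5 and 13.9 FPKM against at most 11.6 FPKM, and Slc12a9 was at 2.35 and 2.62 FPKM against at most 1.88 FPKM.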
